A study of Homo sapiens with 12 samples.

Results

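Imprinted genes are expressed from 1 parental copy, because DNA methylation set in the egg or the sperm marks the copies differently at imprinting control regions. The marks are carried through cell division, and zinc finger proteins such as ZFP57 and ZNF445, with their partner TRIM28, are known to protect them from erasure. Human pluripotent cells are often examined for these genes, because loss of the marks in culture can turn 1 expressed copy into none or into 2. The 39 genes described here were taken by symbol from a list of known imprinted genes, and all 39 were found among the 23613 gene symbols of the 12 tables. By textbook assignment, 21 are expressed from the paternal copy and 12 from the maternal copy, and for 6 (DLX5, BLCAP, GRB10, GNAS, IGF2R and INPP5F) the copy used depends on isoform, tissue or study. They lie in 19 imprinted domains, of which 8 hold several of the genes.

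RNA was measured by sequencing of poly(A)-enriched RNA from colonies of the human embryonic stem cell lines H9 and RUES-2, picked by hand, in 4 groups of 3 biological replicates. Primed cells, which resemble the epiblast after implantation, grew on feeder layers of mitomycin C-treated mouse embryonic fibroblasts with 4 ng/mL bFGF, at passages 31 to 35 for H9 and 30 to 33 for RUES-2. Naive cells, meant to resemble the epiblast before implantation, grew in medium with 5 mM glucose, 20 ng/mL LIF, 18 µg/mL insulin and inhibitors of MEK (PD0325901, 1 µM) and GSK3 (CHIR99021, 3 µM), at passages 27 to 31 for H9 and 24 to 26 for RUES-2. The growth text of the naive cells names neither feeder cells nor an mTOR inhibitor. Nothing states how the cultures of 1 group were separated, so p-values measure only the spread between these libraries.

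Levels are given in FPKM, that is, fragments scaled by transcript length and by the mapped fragments of a library, and each gene has 1 value per library, so the 2 parental copies and the isoforms of a gene cannot be told apart. Between 12681 and 13592 genes per library reached 1 FPKM. In bulk RNA, a change in the share of expressing cells and a change per cell cannot be told apart. In a check of line identity, 3 of the 6 libraries labelled RUES-2 did not match the other 3, and the 6 labelled H9 matched each other. The groups are therefore called by their labels, and in the libraries labelled RUES-2 a difference of state and a difference of line cannot be told apart. Primed RUES-2 replicate 2 stood apart from the other libraries of its label in NDN, NNAT, MEG3 and PEG3, and values without it are given beside the results of NDN, NNAT, DLK1 and MEST. Markers of pluripotent cells were present in every library, with summed levels of 1877.3 to 2357.4 FPKM over 8 genes in primed and 1179.5 to 1614.3 FPKM in naive libraries.

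Promoter windows show how the genes of 1 domain differ in sequence at their start sites. Each runs from 250 bases before to 50 after a gene's start, as listed by RefSeq on GRCh38.p14, 5′ to 3′ on the gene's strand. The shared SNURF and SNRPN window lies in the imprinting control region of the Prader-Willi domain, and MKRN3, MAGEL2 and NDN lie in the same domain. H19 and MEG3 are maternally expressed long noncoding RNAs of other domains. Capitals mark TGCCGC, the core of the motif that ZFP57 binds when methylated, searched on both strands, so that it also appears as GCGGCA.
H19, chr11:2001217-2001516, minus strand: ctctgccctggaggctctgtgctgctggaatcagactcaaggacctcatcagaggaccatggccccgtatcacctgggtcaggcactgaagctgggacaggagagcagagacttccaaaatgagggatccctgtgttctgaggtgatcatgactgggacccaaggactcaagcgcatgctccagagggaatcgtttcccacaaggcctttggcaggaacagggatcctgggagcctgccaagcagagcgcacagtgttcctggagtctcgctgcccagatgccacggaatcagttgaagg
SNURF and SNRPN, chr15:24954737-24955036, plus strand: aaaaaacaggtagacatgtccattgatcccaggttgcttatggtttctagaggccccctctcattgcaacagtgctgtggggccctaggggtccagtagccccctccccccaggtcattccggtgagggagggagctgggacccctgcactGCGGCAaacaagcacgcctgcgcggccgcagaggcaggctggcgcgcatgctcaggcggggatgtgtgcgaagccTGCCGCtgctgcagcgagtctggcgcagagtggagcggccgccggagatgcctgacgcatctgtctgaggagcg
MKRN3, chr15:23565424-23565723, plus strand: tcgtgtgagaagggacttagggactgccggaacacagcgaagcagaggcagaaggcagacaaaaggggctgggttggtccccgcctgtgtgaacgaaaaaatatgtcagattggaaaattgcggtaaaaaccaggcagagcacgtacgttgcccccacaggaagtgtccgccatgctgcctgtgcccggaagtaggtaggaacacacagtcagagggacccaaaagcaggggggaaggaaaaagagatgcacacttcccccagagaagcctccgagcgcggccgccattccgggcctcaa
MAGEL2, chr15:23647818-23648117, minus strand: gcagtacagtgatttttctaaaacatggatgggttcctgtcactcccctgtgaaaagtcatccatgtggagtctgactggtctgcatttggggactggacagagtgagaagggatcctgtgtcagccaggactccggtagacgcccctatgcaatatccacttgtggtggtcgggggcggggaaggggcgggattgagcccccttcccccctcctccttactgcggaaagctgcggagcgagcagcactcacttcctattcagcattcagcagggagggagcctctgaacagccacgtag
NDN, chr15:23687256-23687555, minus strand: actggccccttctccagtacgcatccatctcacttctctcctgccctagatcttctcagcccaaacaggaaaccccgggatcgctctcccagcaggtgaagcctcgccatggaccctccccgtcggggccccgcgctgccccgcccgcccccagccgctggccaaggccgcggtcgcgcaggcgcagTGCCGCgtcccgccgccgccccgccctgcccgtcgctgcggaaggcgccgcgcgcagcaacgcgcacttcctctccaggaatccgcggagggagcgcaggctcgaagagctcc
MEG3, chr14:100825858-100826157, plus strand: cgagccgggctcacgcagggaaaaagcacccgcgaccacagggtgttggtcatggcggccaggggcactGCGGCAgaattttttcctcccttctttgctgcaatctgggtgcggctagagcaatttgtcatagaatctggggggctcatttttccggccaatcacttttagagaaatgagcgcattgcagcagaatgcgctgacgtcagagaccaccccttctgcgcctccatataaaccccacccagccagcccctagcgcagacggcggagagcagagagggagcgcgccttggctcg

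The SNURF window held the motif in both orientations, the NDN and MEG3 windows held it once, and the H19, MKRN3 and MAGEL2 windows did not hold these letters. Of 35114 windows in the RefSeq table, 16.7% held the motif, and of the 55 windows of 24 matched imprinted genes 23 did, which is 41.8%. Several genes have more than 1 window and some windows overlap, so these are counts of windows and not of genes. Counted by gene, 15 of the 24 matched genes held the motif in any window, 62.5%, against 19.5% of all symbols. A gene with more windows can match more easily, and these 24 genes have 55 windows where all 27303 symbols have 35114. HYMAI and PLAGL1 share a window with the motif, as do SNURF and SNRPN, and each gene is counted. The windows of imprinted genes held a median of 18 CpG sites against 14 in all windows. By the expressed copy, 10 of 13 matched paternal genes, 1 of 6 maternal genes and 4 of 5 genes with a variable copy held it. A match is a description of the letters, with no test. CDKN1C, DLK1, DLX5, IGF2, KCNK9, KCNQ1, KCNQ1OT1, MEG8, NNAT, PEG10, PEG3, PHLDA2, SGCE, SLC22A18 and ZIM2 were not matched.

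Of the 39 genes, 29 passed a filter of at least 1 FPKM in at least 3 libraries and were tested. The other 10, KCNQ1, RTL1, MEG3, MEG8, HYMAI, PEG3, ZIM2, DIRAS3, KCNK9 and TP73, stayed under it. MKRN3 passed it through naive libraries alone and MAGEL2 through primed libraries alone, so a difference between states was built into how these 2 genes entered. PLAGL1 reached 1 FPKM in all naive libraries but in primed H9 replicate 2 alone of the primed ones. Its entry thus also rested on the naive state. DLX5 reached 1 FPKM in all libraries labelled RUES-2 but in primed H9 replicate 3 alone of those labelled H9. Its entry thus rested on libraries labelled RUES-2. Each change is naive minus primed, on the mean of log2(FPKM + 1), a scale that makes changes at low levels look small, and adjusted p-values are from limma. In H9, 9 of the 29 genes were higher and 6 lower in naive than in primed libraries, where 44.3% of the 14428 genes tested were called, 20.4% higher and 23.9% lower. In libraries labelled RUES-2, 9 were higher and 9 lower, where 46.8% of all genes were called, 23.1% higher and 23.6% lower. The counts of 15 and 18 genes are 51.7% and 62.1% of those tested, and the list is not far from the background in either line. The median change was 0.02 in H9 and 0.09 in libraries labelled RUES-2, against -0.01 and 0.01 over all genes tested.

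**Figure D1:**
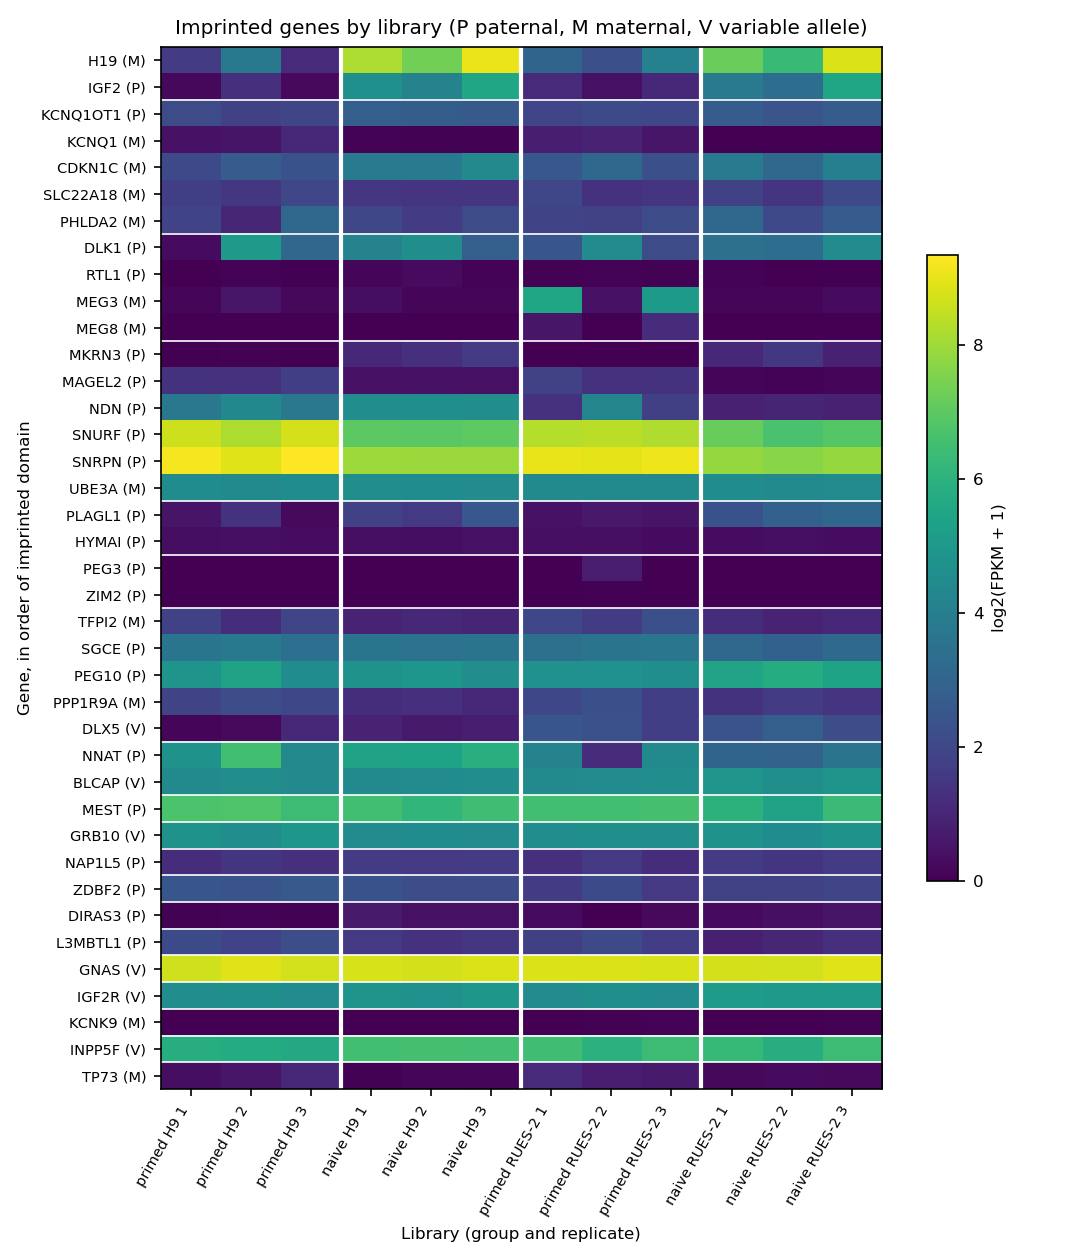
Levels of the 39 imprinted genes (rows, in order of domain, with the expressed copy as P paternal, M maternal or V variable) in the 12 libraries (columns), as log2(FPKM + 1). H19 and IGF2 are bright in all naive libraries, and MEG3 stands out in primed RUES-2 replicates 1 and 3.

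Both copies' genes moved in both directions. Of 16 paternally expressed genes tested, 5 were higher and 4 lower in H9, and 5 were higher and 7 lower in libraries labelled RUES-2. Of 7 maternally expressed genes, 2 were higher and 2 lower in each line. Of the 6 with a variable copy, 2 were higher and none lower in each line, and limma gave an unadjusted p under 0.05 to 3 and 2 in either direction. The median changes of the paternal genes were 0.14 in H9 and 0.01 in libraries labelled RUES-2, and those of the maternal genes were -0.09 and 0.16.

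Across lines, 7 genes were called higher in both state comparisons: H19, IGF2, KCNQ1OT1, CDKN1C, MKRN3, PLAGL1 and IGF2R. Another 6 were called lower in both: MAGEL2, SNURF, SNRPN, TFPI2, PPP1R9A and L3MBTL1. The share of all genes called the same way in both lines was not computed, so these counts stand without a background. They include MKRN3 and PLAGL1, whose entry rested on the naive state, and MAGEL2, whose entry rested on the primed state. The calls of these genes are thus a description, with no test. NAP1L5 and INPP5F were called in H9 alone, and PEG10, BLCAP, NDN, SGCE and MEST in libraries labelled RUES-2 alone. The remaining 9 genes, SLC22A18, PHLDA2, DLK1, UBE3A, DLX5, NNAT, GRB10, ZDBF2 and GNAS, were called in neither.

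**Figure D2:**
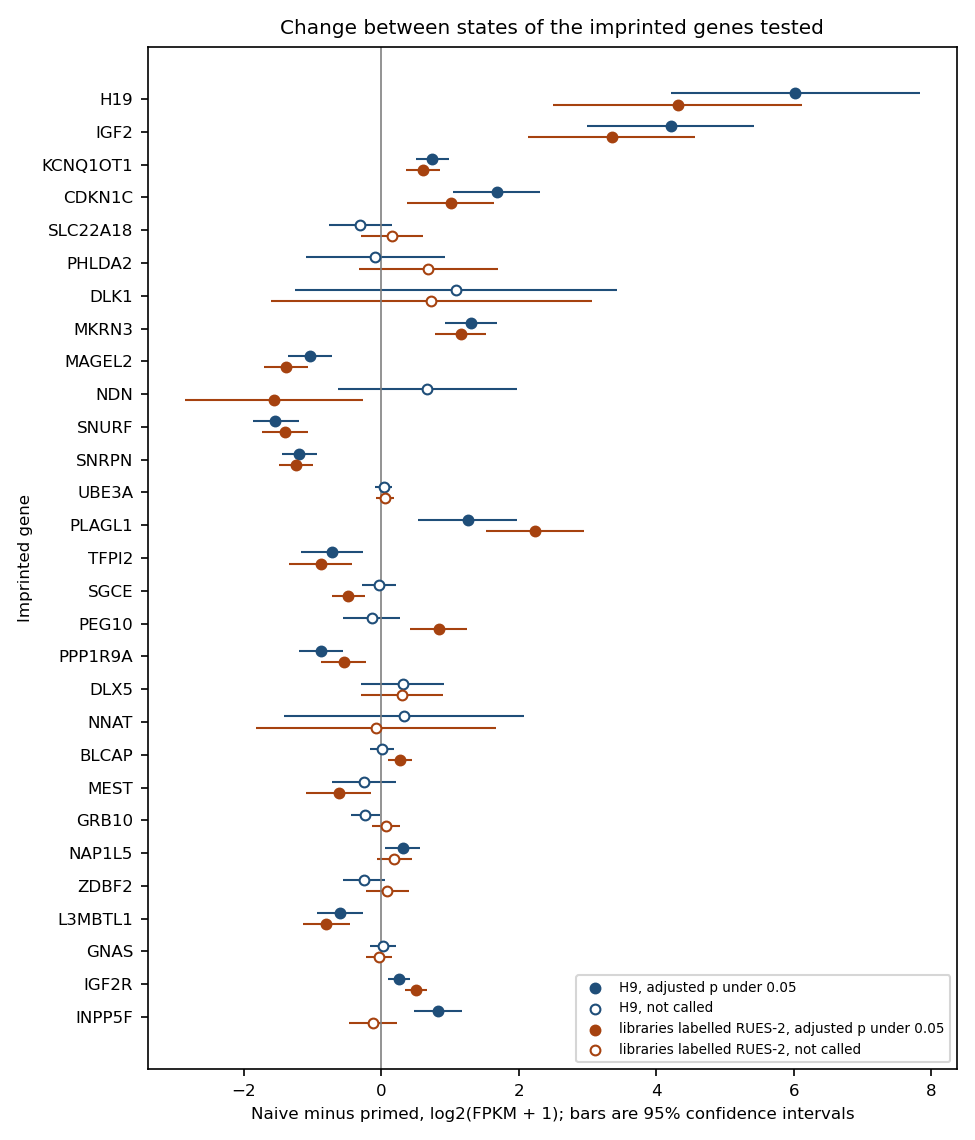
Naive minus primed change of the 29 imprinted genes tested, on the log2(FPKM + 1) scale, with 95% confidence intervals, in H9 (blue) and in libraries labelled RUES-2 (red), filled where the adjusted p was under 0.05. H19 and IGF2 lie furthest to the right in both, and NDN lies on opposite sides of 0 in the 2 lines.

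H19 and IGF2 are neighbours on chromosome 11 (hg19, chr11:2016406-2019065 and chr11:2150347-2170833) that share enhancers. H19 is a maternally expressed noncoding RNA, and IGF2, a growth factor, is expressed from the paternal copy. H19 measured 2.08, 12.6 and 1.16 FPKM in primed H9 and 289.8, 161.3 and 526.9 FPKM in naive H9. In primed RUES-2 it measured 7.03, 3.81 and 16.1 FPKM, and in naive RUES-2 144.7, 78.4 and 443.9 FPKM. All naive libraries lay above all primed ones. The change was 6.02 (SE 0.82, adjusted p = 0.00025) in H9 and 4.31 (SE 0.82, adjusted p = 0.00172) in libraries labelled RUES-2.

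IGF2 measured 0.142, 1.47 and 0.19 FPKM in primed H9 and 24.8, 17.2 and 44.3 FPKM in naive H9. In primed RUES-2 it measured 1.24, 0.335 and 1.12 FPKM, and in naive RUES-2 13.1, 9.31 and 44.9 FPKM. Its naive libraries were above all primed ones in both lines, as for H19. The change was 4.21 (SE 0.55, adjusted p = 0.000195) in H9 and 3.35 (SE 0.55, adjusted p = 0.000723) in libraries labelled RUES-2. IGF2 overlaps INS-IGF2 and IGF2-AS, so its value may include their reads. The differences of the state changes between the lines, -1.71 for H19 and -0.86 for IGF2, were not called (adjusted p = 0.444 and 0.575). The paternally and the maternally expressed gene thus rose together, and MRPL23, which lies 38.6 kb from H19 outside the domain, rose by 0.39 and 0.38 (adjusted p = 0.00202 and 0.00212).

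The fibroblast collagen gene COL3A1 moved with H19 and IGF2. COL3A1 measured 0.694, 5.62 and 1.23 FPKM in primed H9, 141.0, 117.2 and 224.8 FPKM in naive H9, 0.706, 0.31 and 2.4 FPKM in primed RUES-2 and 109.6, 85.5 and 445.3 FPKM in naive RUES-2. In each naive group the library highest in COL3A1 was also highest in H19 and IGF2, and the lowest was the lowest. The library highest in H19 was also highest in 16 of 18 fibroblast markers in naive H9 and in 17 in naive RUES-2, and the library lowest in H19 was lowest in 8 and in 18 of them. COL1A1, COL1A2, LUM and DCN were among those lowest in another naive H9 library. The order was not particular to fibroblast markers. Summed primitive endoderm markers followed H19 in naive H9 replicates 1 to 3, at 183.1, 120.9 and 263.5 FPKM. In naive RUES-2, at 355.7, 194.0 and 329.4 FPKM, only the lowest library was the same. Summed trophoblast markers, at 4.51 to 9.86 FPKM, followed H19 in both naive groups. Summed neural markers did so in neither, and were highest in the library lowest in H19. Of 17 fibroblast markers tested, 11 were higher and 1 lower in naive H9, and 9 were higher and 2 lower in naive RUES-2. The summed level of the 18 fibroblast markers ranged from 370.5 to 780.3 FPKM in primed H9, 685.4 to 946.1 FPKM in naive H9, 377.3 to 645.2 FPKM in primed RUES-2 and 396.8 to 1574.9 FPKM in naive RUES-2. FAP, a defining fibroblast marker, was listed at 0 in all primed libraries and at 0.137 to 1.22 FPKM in the naive ones. THY1, a surface marker of fibroblasts that primed stem cells also express, fell by 2.33 and 2.62 (adjusted p = 0.000306 and 0.000137), and S100A4 fell by 1.43 in libraries labelled RUES-2 (adjusted p = 0.0142). Of 6 neural markers tested, 5 were higher and none lower in each line, and of 12 primitive endoderm markers 6 and 7 were higher and 1 lower in each. Of 5 trophoblast markers 1 was higher in each line, and 1 and 2 were lower. Over all genes tested, 20.4% were higher and 23.9% lower in H9, and 23.1% and 23.6% in libraries labelled RUES-2. DCN, POSTN and OLIG3 reached 1 FPKM in naive libraries alone, and KRT7 and GATA3 in primed libraries alone. Their calls between states were thus built into how they entered. The part of such cells in the H19 and IGF2 values was not tested.

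**Figure D3:**
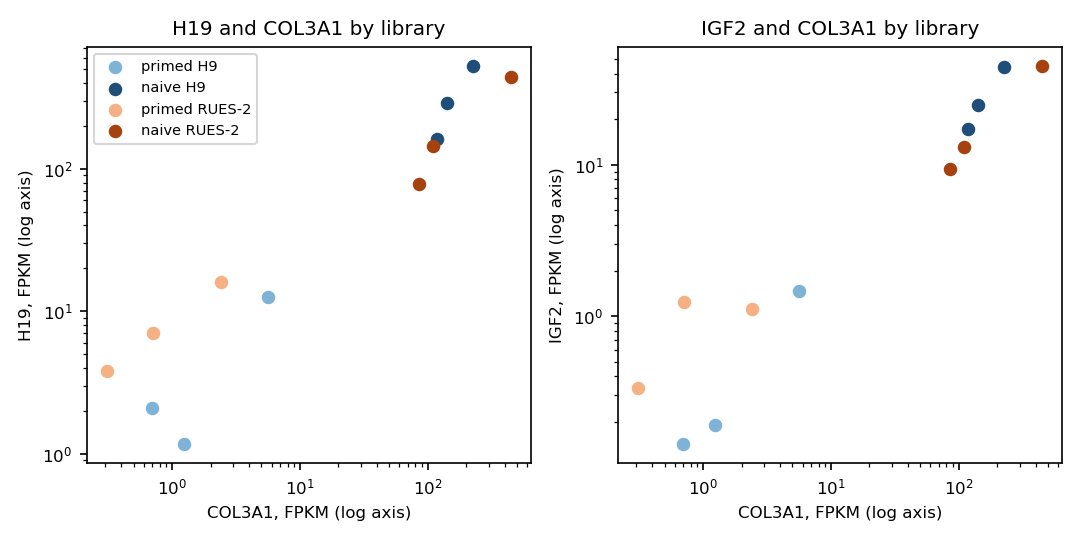
Level of H19 (left) and IGF2 (right) against the fibroblast collagen gene COL3A1 in each of the 12 libraries, all in FPKM on log axes, by group. Naive libraries lie at 85.5 to 445.3 FPKM of COL3A1 and at 78.4 FPKM of H19 or more, and primed libraries lie at 5.62 FPKM of COL3A1 or less.

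Other genes listed with the IGF2 pathway were mostly lower in naive libraries. Of 12 receptor, binding protein and signalling genes tested, none was higher and 9 were lower in each line, with medians of -1.02 and -0.93. The 12 include IGF2BP1, IGF2BP2 and IGF2BP3, which bind mRNA and are not binding proteins of the growth factor. IGF2BP2 and IGF2BP3 are among the 9 lower in each line. Over all genes tested, 20.4% were higher and 23.9% lower in H9, and 23.1% and 23.6% in libraries labelled RUES-2. For the 12 genes, limma gave an unadjusted p under 0.05 to 10 and 9 in either direction, and the share over all genes was not computed. IGFBP6, a binding protein with high affinity for IGF2, fell by 2.38 in H9 and by 1.71 in libraries labelled RUES-2 (adjusted p = 8.18e-05 and 0.0006). INSR, the insulin receptor, fell by 1.62 and 1.45 (adjusted p = 4.9e-05 and 9.59e-05). IGF2R, the receptor that clears IGF2 and whose imprinting in humans varies, rose from 23.0, 23.9 and 21.9 FPKM to 27.8, 25.7 and 29.6 FPKM in H9, a change of 0.26 (adjusted p = 0.0137, or 0.0598 without naive H9 replicate 3). In libraries labelled RUES-2 it rose from 21.6, 24.1 and 21.9 to 33.6, 31.5 and 32.2 FPKM, a change of 0.51 (adjusted p = 0.000292). Every naive library lay above every primed one of its line.

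The neighbouring KCNQ1OT1 domain is controlled by the paternally expressed noncoding RNA KCNQ1OT1, which overlaps KCNQ1 and is known to silence nearby genes on the paternal copy. KCNQ1OT1 measured 3.45, 2.51 and 2.88 FPKM in primed H9 and 6.04, 5.72 and 5.03 FPKM in naive H9, and 2.91, 3.29 and 2.97 FPKM against 5.53, 4.53 and 5.52 FPKM in libraries labelled RUES-2. The groups did not overlap, and the changes were 0.74 and 0.61 (adjusted p = 0.000459 and 0.00143). CDKN1C, a maternally expressed inhibitor of cell cycle kinases, rose from 3.17, 5.41 and 4.1 FPKM to 13.8, 13.3 and 20.0 FPKM in H9, a change of 1.68 (adjusted p = 0.00103). In libraries labelled RUES-2 it measured 4.86, 7.79 and 3.85 FPKM and then 13.3, 7.73 and 15.3 FPKM, a change of 1.01 (adjusted p = 0.0149), and these groups overlapped. Left out in turn, primed RUES-2 replicate 3 and naive RUES-2 replicates 1 and 3 each took the adjusted p of CDKN1C to 0.0511 to 0.0568. SLC22A18, a maternally expressed transporter, differed by -0.31 and 0.16 and PHLDA2, a maternally expressed growth restrictor, by -0.09 and 0.68, with adjusted p of 0.247, 0.549, 0.897 and 0.245. KCNQ1, a potassium channel gene under the filter, was listed at 0.375 to 1.08 FPKM in primed and at 0 to 0.0637 FPKM in naive libraries, and the fit without a filter gave -0.61 and -0.74 (adjusted p = 0.00841 and 0.00269). KCNQ1 was lower, and the maternally expressed CDKN1C higher, in the state in which KCNQ1OT1 was higher, and a link was not tested. KCNQ1OT1 and KCNQ1 overlap and the strand setting is not known, so their values may include each other's reads. NAP1L4, 15.0 kb beyond the domain, differed by 0.23 and 0.22 (adjusted p = 0.0643 and 0.0649).

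The SNRPN domain on chromosome 15 is the Prader-Willi region, in which the paternal copy expresses MKRN3, MAGEL2, NDN and SNRPN, and the maternal copy UBE3A in neurons. SNRPN, a splicing protein gene, measured 587.7, 466.6 and 644.3 FPKM in primed H9 and 250.7, 243.1 and 244.3 FPKM in naive H9, then 523.3, 490.9 and 553.2 FPKM in primed RUES-2 and 229.5, 201.3 and 229.7 FPKM in naive RUES-2. All naive libraries lay below all primed ones. SNRPN fell by 1.19 and 1.24 (adjusted p = 2.43e-05 and 1.82e-05). SNURF, which shares transcripts and reads with SNRPN, fell by 1.54 and 1.40 (adjusted p = 3.09e-05 and 5.5e-05). IPW, a noncoding RNA further along the same paternal transcript and no member of the list, fell by 0.95 and 1.33 (adjusted p = 0.000242 and 2.78e-05).

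MAGEL2, a regulator of ubiquitin ligases, measured 1.58, 1.53 and 2.29 FPKM in primed H9 and 0.363, 0.364 and 0.346 FPKM in naive H9, and 2.5, 1.53 and 1.57 FPKM in primed RUES-2 against 0.101, 0.0609 and 0.103 FPKM in naive RUES-2. The groups did not overlap, and the differences were -1.03 and -1.38. MKRN3, which encodes a zinc finger protein that restrains puberty, was listed at 0 in 5 of 6 primed libraries and at 0.0427 FPKM in the other, primed H9 replicate 2. It measured 1.13, 1.44 and 2.01 FPKM in naive H9 and 1.12, 1.87 and 0.822 FPKM in naive RUES-2. All naive libraries lay above all primed ones, with a difference of 1.30 in H9 and 1.16 in libraries labelled RUES-2. MKRN3 and MAGEL2 entered through 1 state alone, as stated above, so their values are a description, with no test. With a pseudocount of 0.1 FPKM their differences were 3.82 and 3.7 for MKRN3 and -2.03 and -3.36 for MAGEL2. UBE3A, a ubiquitin ligase gene expressed from both copies outside neurons, measured 20.5 to 23.5 FPKM in all 12 libraries and differed by 0.04 and 0.05 (95% confidence interval -0.09 to 0.16 and -0.08 to 0.18, adjusted p = 0.641 and 0.515).

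NDN, a growth-restraining protein gene of the same domain, varied between libraries of 1 label. NDN measured 12.4, 19.4 and 12.4 FPKM in primed H9 and 23.0, 24.1 and 23.6 FPKM in naive H9. In primed RUES-2 it measured 1.51, 18.2 and 2.42 FPKM, and in naive RUES-2 0.802, 0.972 and 0.803 FPKM. Replicate 2 of primed RUES-2 was at the level of the H9 libraries, and the others labelled RUES-2 were below 2.5 FPKM. The change was 0.67 (SE 0.59, adjusted p = 0.376) in H9 and -1.56 (SE 0.59, adjusted p = 0.0493) in libraries labelled RUES-2, where 13 of 19 alternatives lost the call. Without primed RUES-2 replicate 2 the changes were 0.67 (adjusted p = 0.0104) and -0.66 (adjusted p = 0.0205), the difference of the 2 changes was -1.33 (adjusted p = 0.0192), and the level in primed RUES-2 was 2.39 log2 units below that in primed H9 (adjusted p = 0.000297). In the naive state NDN was lower by 3.73 in libraries labelled RUES-2 (adjusted p = 0.0024).

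**Figure D4:**
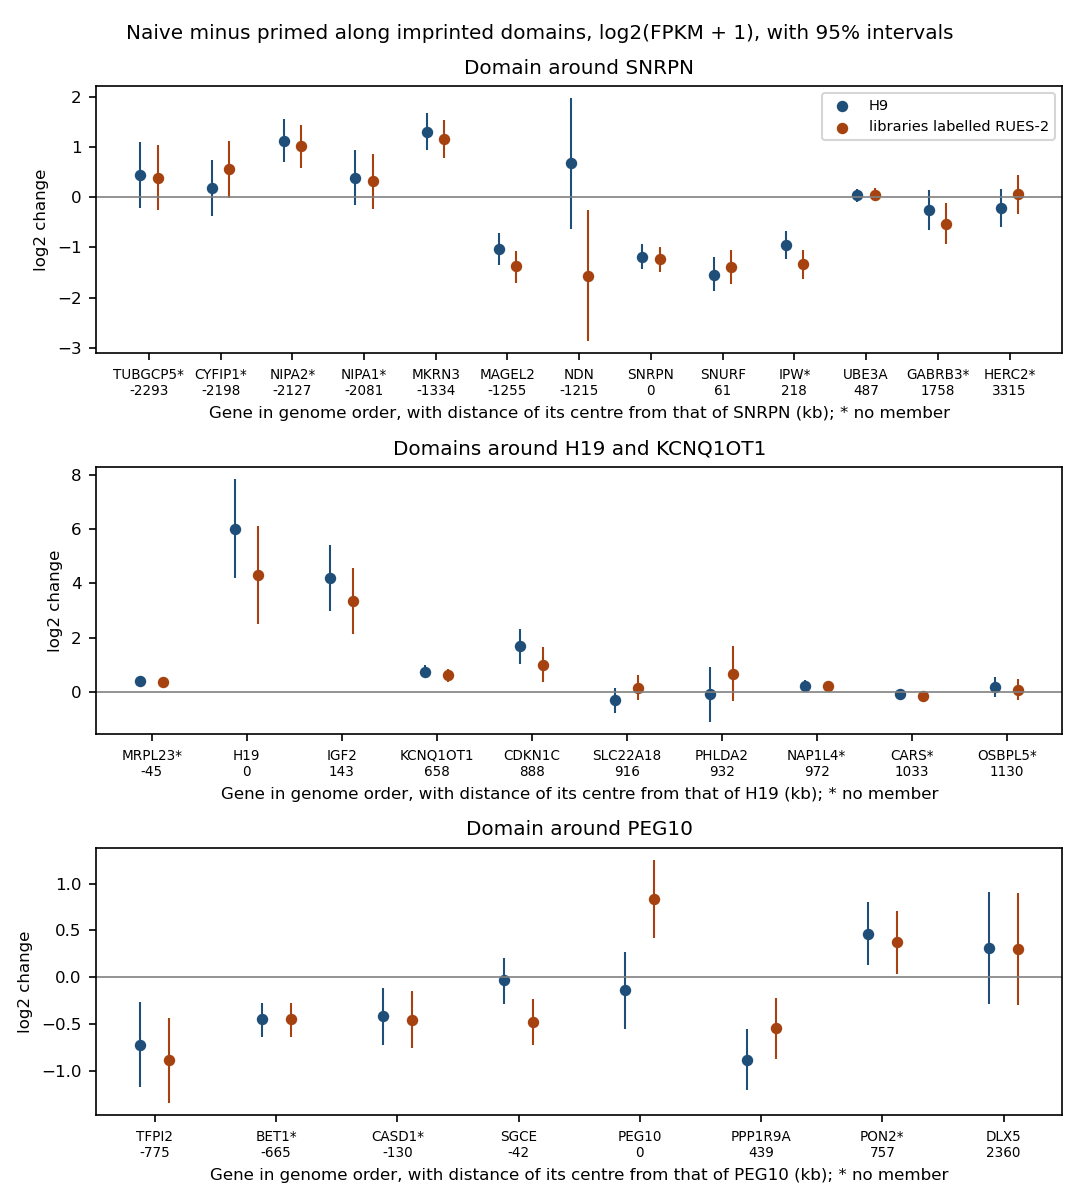
Naive minus primed change on the log2(FPKM + 1) scale, with 95% confidence intervals, of imprinted genes and of other genes (marked *) in genome order in 3 regions, with distances of gene centres in kb, in H9 (blue) and libraries labelled RUES-2 (red). In the SNRPN region MKRN3 lies above 0 and MAGEL2, SNURF, SNRPN and IPW below 0 in both lines.

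The domain of DLK1 and MEG3 on chromosome 14 holds DLK1, a paternally expressed membrane protein gene, and the maternal noncoding RNAs MEG3 and MEG8. DLK1 measured 0.204, 31.5 and 7.48 FPKM in primed H9, 17.1, 23.5 and 6.17 FPKM in naive H9, 4.59, 21.6 and 3.5 FPKM in primed RUES-2 and 10.0, 9.39 and 21.7 FPKM in naive RUES-2. The states overlapped in both lines, and the differences of 1.09 and 0.73 were not called (adjusted p = 0.427 and 0.599). Without primed RUES-2 replicate 2 the second was 1.45 (adjusted p = 0.327). MEG3 measured 45.2 and 33.2 FPKM in primed RUES-2 replicates 1 and 3, 0.387 FPKM in replicate 2 and 0.08 to 0.492 FPKM in the other 9 libraries. MEG8 was likewise listed above 0 in these 2 libraries alone, at 0.471 and 1.28 FPKM. Both stayed under the filter. In the fit without a filter, MEG3 fell by 3.53 in libraries labelled RUES-2 (adjusted p = 0.0244) and differed by -0.07 in H9 (adjusted p = 0.995), with a difference of -3.45 that was not called (adjusted p = 0.248). These values include primed RUES-2 replicate 2, which lay at the level of the other groups. RTL1, a paternal gene of retrotransposon origin, was at 0.2 FPKM or less in every library.

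PEG3 and ZIM2, paternal zinc finger genes that share exons, were listed at 0 in 11 of 12 libraries and at 0.627 and 0.0308 FPKM in primed RUES-2 replicate 2. PEG3-AS1, an antisense gene of the same locus, was at 0.908 FPKM in that library and listed at 0 in the others. NNAT, a paternal gene for a small membrane protein of the brain, lies inside an intron of BLCAP. NNAT measured 26.5, 88.9 and 19.8 FPKM in primed H9, 40.2, 41.9 and 57.2 FPKM in naive H9, 17.2, 1.26 and 20.9 FPKM in primed RUES-2 and 7.11, 6.78 and 11.2 FPKM in naive RUES-2. Its differences between states of 0.33 and -0.07 were not called (adjusted p = 0.76 and 0.949). Replicate 2 of primed RUES-2 was the lowest of all libraries, and without it the difference in libraries labelled RUES-2 was -1.12 (adjusted p = 0.111). In the naive state NNAT was 2.35 lower in libraries labelled RUES-2 (adjusted p = 0.0698, or 0.0094 without primed RUES-2 replicate 2). The library that stood apart in NDN, MEG3, PEG3 and NNAT was also at 0.445 FPKM of NLRP2, an oocyte factor for imprint upkeep, against 63.3 and 66.8 FPKM in the other primed RUES-2 libraries. NLRP2 and PEG3-AS1 were singled out after their values were seen. BLCAP, whose copy use depends on isoform, rose by 0.28 in libraries labelled RUES-2 (adjusted p = 0.0164) and differed by 0.01 in H9 (adjusted p = 0.964). The call was lost without primed RUES-2 replicate 1 or naive RUES-2 replicates 1 or 3 (adjusted p up to 0.0652).

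**Figure D5:**
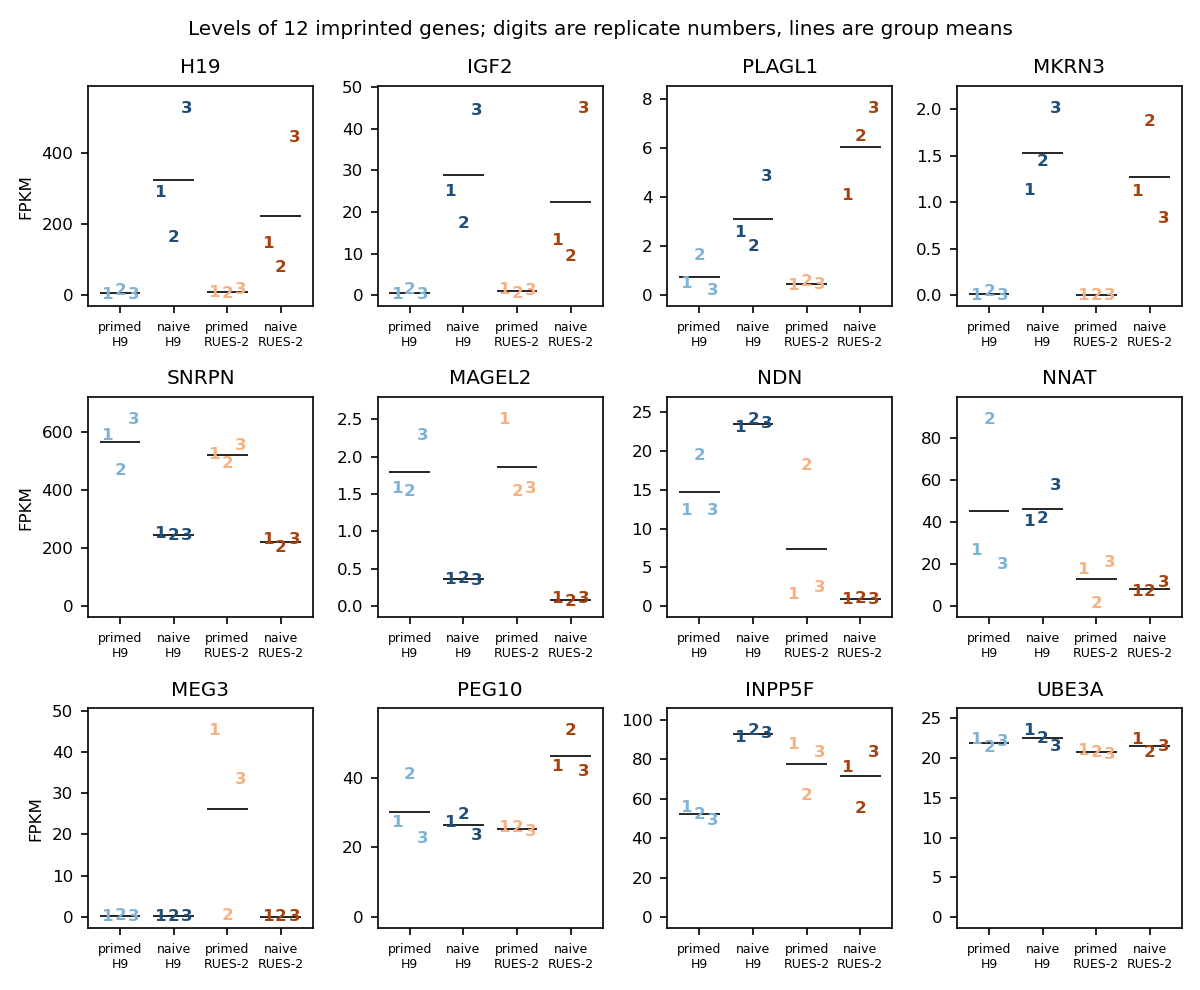
Levels in FPKM of 12 imprinted genes in the 4 groups, where digits are replicate numbers and lines are group means. Digit 2 of primed RUES-2 stands apart from digits 1 and 3 in NDN, NNAT and MEG3, and SNRPN and MAGEL2 are lower in all naive libraries.

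The PEG10 domain on chromosome 7 pairs PEG10, a paternal gene of retrotransposon origin, with SGCE, a sarcoglycan gene transcribed from the same region on the opposite strand. PEG10 measured 27.2, 40.9 and 22.4 FPKM in primed H9, 27.0, 29.3 and 23.3 FPKM in naive H9, 25.7, 25.7 and 24.4 FPKM in primed RUES-2 and 43.2, 53.5 and 41.6 FPKM in naive RUES-2. Naive RUES-2 was above every other library, and PEG10 rose by 0.84 there (adjusted p = 0.00414) and differed by -0.14 in H9 (adjusted p = 0.564). The difference of 0.98 between the lines was not called (adjusted p = 0.0569), and 4 of 18 alternatives called it. SGCE measured 9.92, 11.0 and 11.7 FPKM in primed RUES-2 and 7.7, 6.53 and 8.37 FPKM in naive RUES-2, a fall of 0.48 (adjusted p = 0.00541), and differed by -0.03 in H9 (adjusted p = 0.836). The paternal neighbours PEG10 and SGCE thus moved in opposite directions in libraries labelled RUES-2. TFPI2, a maternal protease inhibitor gene, fell by 0.72 and 0.88 (adjusted p = 0.0161 and 0.0051), and the H9 call was lost without primed H9 replicates 1 or 3 or naive H9 replicate 1 (adjusted p up to 0.0604). PPP1R9A, a maternal neuronal scaffold gene, fell by 0.88 and 0.54 (adjusted p = 0.00093 and 0.0118). DLX5, a homeobox gene, differed by 0.31 and 0.30 (adjusted p = 0.376 and 0.393).

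PLAGL1, a paternal zinc finger gene, measured 0.459, 1.61 and 0.175 FPKM in primed H9 and 2.53, 1.97 and 4.83 FPKM in naive H9. In primed RUES-2 it measured 0.383, 0.557 and 0.45 FPKM, and in naive RUES-2 4.07, 6.45 and 7.6 FPKM. The groups did not overlap, and the differences were 1.26 and 2.23. The entry of PLAGL1 rested on the naive state, as stated above, so these values are a description, with no test. HYMAI, which overlaps PLAGL1, was at 0.204 to 0.33 FPKM in all libraries. L3MBTL1, a paternal chromatin reader gene, fell by 0.60 and 0.80 (adjusted p = 0.00942 and 0.00184). MEST, a paternal hydrolase gene, differed by -0.25 in H9 (adjusted p = 0.357) and fell by 0.62 in libraries labelled RUES-2 (adjusted p = 0.0349), where it was at 63.1, 40.5 and 81.7 FPKM in naive against 90.2, 90.6 and 93.8 FPKM in primed libraries. Without naive RUES-2 replicate 2 the difference was -0.35 (adjusted p = 0.0954), and the call was also lost without primed RUES-2 replicate 1, 2 or 3 or naive RUES-2 replicate 1 (adjusted p = 0.0739, 0.0709, 0.079 and 0.0598).

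INPP5F, a phosphatase gene whose imprinted isoform is expressed in brain, measured 55.6, 51.9 and 49.1 FPKM in primed H9 and 91.0, 94.6 and 93.2 FPKM in naive H9, and 87.6, 61.5 and 83.4 FPKM in primed RUES-2 against 76.0, 55.2 and 83.6 FPKM in naive RUES-2. It rose by 0.82 in H9 (adjusted p = 0.00209) and differed by -0.12 in libraries labelled RUES-2 (adjusted p = 0.572). The difference of -0.94 was called (adjusted p = 0.0376), and INPP5F was the only 1 of 29 members called there, where 5.7% of all genes were, 3.77% higher and 1.93% lower. Its neighbour MCMBP, 0.3 kb away, differed by 0.10 and 0.11, and BAG3, 48.2 kb away on the other side, by 1.10 (adjusted p = 0.00189) and 0.63. NAP1L5, a paternal intronless gene inside HERC3, rose by 0.31 in H9 (adjusted p = 0.0493), a call kept by 7 of 18 alternatives. GNAS, a signalling protein gene with isoform-specific imprinting, measured 400.3 to 483.8 FPKM in all libraries. GRB10, an adaptor protein gene, differed by -0.23 and 0.07, and ZDBF2, a paternal zinc finger gene, by -0.25 and 0.09, with adjusted p of 0.0674, 0.547, 0.174 and 0.639. Of the paternal DIRAS3 and the maternal KCNK9 and TP73, DIRAS3 was at 0.6 FPKM or less, KCNK9 at 0.0762 FPKM or less and TP73 at 1.2 FPKM or less. In the fit without a filter, TP73, a relative of the p53 gene, was lower by 0.53 and 0.60 in naive libraries (adjusted p = 0.0291 and 0.0153). DIRAS3, a small GTPase gene, was higher by 0.43 in H9 (adjusted p = 0.00714) and differed by 0.24 in libraries labelled RUES-2 (adjusted p = 0.0768).

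Between the lines, 2 of the 29 genes were called in the primed state, where 1.82% of all genes were (1.34% higher, 0.471% lower), and 5 in the naive state, where 15.9% were (11.2% higher, 4.69% lower). DLX5 was higher in libraries labelled RUES-2 in both states, by 1.69 and 1.68, at 2.3 to 6.09 FPKM against 0.116 to 1.09 FPKM in H9. It is counted among the 2 and the 5, but its entry rested on libraries labelled RUES-2, as stated above. Its values between lines are thus a description, with no test. Its primed call was also lost without primed H9 replicate 1 or primed RUES-2 replicate 1, and in the separate fit of the primed libraries. ZDBF2 was lower by 0.74 in the primed state (adjusted p = 0.0303), a call kept by 8 of 18 alternatives. In the naive state PEG10 and BLCAP were higher by 0.77 and 0.30 (adjusted p = 0.0186 and 0.0326), and NDN and SGCE were lower by 3.73 and 0.50 (adjusted p = 0.0024 and 0.0139). Without naive H9 replicate 1 or naive RUES-2 replicate 2 the calls of PEG10 and SGCE were lost, and that of PEG10 also without naive H9 replicate 3 (adjusted p up to 0.0765). The call of BLCAP was lost without naive H9 replicate 1 or 2 or naive RUES-2 replicate 1 or 3 and with the replicate block (adjusted p = 0.0564 to 0.127). NDN was called in all 19 alternatives.

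Of 23 genes tested that keep or set imprints, 3 were higher and 6 lower in H9, and 4 were higher and 6 lower in libraries labelled RUES-2. These are 39.1% and 43.5% of those tested, below the 44.3% and 46.8% of all genes. DNMT3L, a cofactor of the enzymes that set methylation, measured 0.0953 to 0.888 FPKM in primed H9 and 9.43 to 16.7 FPKM in naive H9. It differed by 3.42 and 4.49 in the 2 lines. Of the primed libraries, primed RUES-2 replicates 1 and 3 alone reached 1 FPKM, at 1.2 and 1.0 FPKM, so its entry rested on the naive state. These differences are thus a description, with no test. So is the higher call of TET2 in libraries labelled RUES-2, which had primed RUES-2 replicates 1 and 2 alone at 1 FPKM among primed libraries. TLE6, among the 6 lower in each line, passed the filter through primed libraries alone. DNMT3B, a methyltransferase, fell by 2.00 and 2.71 (adjusted p = 5.14e-06 and 9.89e-07). ZFP57 was at 0 to 1.3 FPKM and under the filter. TRIM28 differed by -0.01 and -0.10, and ZNF445 by 0.07 and -0.09, in H9 and in libraries labelled RUES-2. KHDC3L, an oocyte factor needed for maternal imprints, measured 7.27, 8.97 and 12.2 FPKM in naive H9 and 0.302 FPKM or less in all other libraries. It passed the filter through naive H9 alone, so a difference was built into how it entered. It is among the 3 counted as higher in H9. Its differences, 3.25 in H9 and 0.17 in libraries labelled RUES-2, are a description, with no test. HELLS, a chromatin remodeller, fell by 0.35 and 1.12, with a called difference of -0.77 (adjusted p = 0.00639). Of 16 further imprinted genes tested, 4 were higher and 6 lower in each line. AIM1 and FAM50B, among those lower, reached 1 FPKM in primed libraries alone. Among 42 genes flanking the domains, 10 and 7 were higher and 5 and 8 lower. SMIM1, among those lower, also reached 1 FPKM in primed libraries alone. HERC6, likewise lower, did so in naive RUES-2 replicate 1 alone of the naive libraries. The entry of AIM1, FAM50B, SMIM1 and HERC6 thus rested on the primed state, and their lower calls are a description, with no test. Over all genes tested, 20.4% and 23.1% were higher and 23.9% and 23.6% lower in the 2 lines.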

How the data were processed

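Poly(A) RNA libraries of 12 samples were prepared with an Illumina kit, per the labels' protocols. The submitters' processing notes name hg19, TopHat2 2.1.1 and bcl2fastq 2.17.1.14. The expression program, its annotation and its strand setting were not given in the sources used here. FPKM values per gene were deposited with bounds of confidence, per the file headers, while the design text speaks of RPKM. The tables were joined by gene and locus, and for 554 symbols with several loci the one with the highest mean was kept. No table was left unassigned to a sample. No read counts are held, so no count test was run, and the confidence bounds imply 47.8 to 112.3 fragments (median by library) at 1 to 2 FPKM. Sums of FPKM ran from 754195 to 986124, with 35.13% to 50.14% in short RNAs.

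The 14428 genes that reached 1 FPKM in 3 libraries or more entered limma 3.58.1 (R 4.3.3) on log2(FPKM + 1), with 4 group means in 1 model, a variance trend, two-sided tests and Benjamini-Hochberg adjustment over all genes. An adjusted p under 0.05 made a call. The fit was tested on simulated data. Tables and plots used Python 3.11.15, numpy 2.4.6, pandas 2.3.3 and matplotlib 3.10.9. Flanking genes were named where nearest within 1500 kb of a domain. Other lists name up to 4 called genes of largest change. Members and lists were chosen with earlier results of these data known. Promoter windows come from RefSeq on GRCh38.p14 and are never joined to hg19 positions. The alternatives were another pseudocount, filter, scaling, replicate block, separate fits, no variance trend and leaving out each library.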

Additional observations from a re-analysis of the deposited data

Results flagged for a closer look

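INPP5F was flagged because its change between states differed between the lines by a test of the difference itself. The difference of the state changes, libraries labelled RUES-2 minus H9, was -0.94 (SE 0.22, adjusted p = 0.0376 from limma). In H9 all 3 naive libraries lay above all 3 primed ones, and in libraries labelled RUES-2 the states overlapped. The call held in 8 of 18 alternatives, whose adjusted p ran from 0.0162 to 0.09, and the difference ran from -1.1 to -0.76. It was lost on leaving out any 1 of 10 libraries and kept without primed RUES-2 replicate 2 or naive RUES-2 replicate 3. The part that libraries at odds with their line label have in it was not tested.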

How the results depend on the processing

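The state changes of H19, IGF2, KCNQ1OT1, SNURF, SNRPN, PPP1R9A and L3MBTL1 kept their direction and call in both lines under every alternative that tested them. So did 22 of 29 called member results between states, leaving out MKRN3 and MAGEL2, which passed the filter through 1 state alone. These counts include PLAGL1, whose entry also rested on the naive state. With a filter of 5 FPKM, 19 members were tested, and 8 were called in H9 and 11 in libraries labelled RUES-2. That filter removed DLX5 and ZDBF2, the 2 members called between lines in the primed state, so their calls could not be tested under it. In that comparison the separate fit called 0 members and the replicate block 1. The separate fit called 8 members between lines in the naive state. For the difference of the state changes, median-of-ratios scaling and the replicate block each called 2 members, with PEG10 added (adjusted p = 0.049 and 0.0232).

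On leaving out each library in turn, the members called ran from 13 to 17 in H9, 14 to 17 in libraries labelled RUES-2, 0 to 2 for the difference, 0 to 4 between lines in the primed state and 2 to 8 in the naive state. Over all genes the counts ran from 5049 to 6683, 5571 to 7279, 408 to 920, 61 to 385 and 1213 to 2811. Over all genes, the filter of 5 FPKM called 424 for the difference, 102 between lines in the primed state and 1469 in the naive state. Between lines in the primed state the replicate block called 170 genes and the separate fit 27, against 262. The cause was not tested, apart from the fewer genes or samples that a filter or a left-out library itself brings.

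Among members not called, direction turned in 20 cases. BLCAP in H9 was -0.01 with median-of-ratios scaling, and NNAT in libraries labelled RUES-2 was 0.06 with a pseudocount of 0.1 FPKM. On leaving out 1 library, the values that turned ran in H9 from -0.59 to 0.49 for PHLDA2, -0.18 to 2.2 for DLK1, -0.13 to 0.05 for SGCE, -0.33 to 0.09 for PEG10, -0.09 to 0.97 for NNAT, -0.03 to 0.07 for BLCAP and -0.03 to 0.1 for GNAS. In libraries labelled RUES-2 they ran from -1.12 to 0.52 for NNAT, -0.02 to 0.26 for ZDBF2 and -0.27 to 0.06 for INPP5F. Line comparisons and the difference gave 1299 further values for members not named there, of which 50 changed sign and 7 changed call.

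Same-numbered libraries of different groups had correlations of deviations of -0.0537 to 0.136, and in no comparison were all 3 above 0.1, so the numbers were not taken to pair the samples. With the replicate block, 14 members were called in H9 and 18 in libraries labelled RUES-2, and 4 between lines in the naive state. The tables hold no counts, and the tests did not use the deposited confidence bounds. Precision at low levels, as for MKRN3, MAGEL2 and members under the filter, was thus judged only from the spread between libraries.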
